A study of Danio rerio with 4 samples.

Results

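A set of 10 transcription factor genes of the Prrx1, Sall, Alx4, Twist and Hand2 families was followed in zebrafish (Danio rerio) fins. They were picked by Ensembl ID (1 gene named PRRX1, 1 named SALL1 and both named ALX4) and by gene name (SALL4, twist1a, twist1b, twist2, twist3 and HAND2), and all 10 were found among the 32434 genes of the count tables. RNA was sequenced from wild type fish of strain EK, in 2 pools of fins that had regrown for 4 days after being cut to part of their length, and in 2 pools of uninjured fins, each of 10 fins. No genotype or treatment other than the amputation is given for either group. Whether each pool is a separate set of fish is not in the labels, and the p-values speak only of variation among the pools at hand, part of which can be technical. Each pool is a bulk extract of fin tissue, so a difference in the number of cells of a type and a difference in RNA per cell cannot be told apart.

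A cut fin regrows from a blastema, a mass of dividing connective tissue cells under a wound epidermis. The genes described here are known from the limb buds of vertebrates, where Prrx1 and the Twist factors mark mesenchyme, Sall and Alx4 factors pattern it, and Hand2 acts in its posterior part upstream of sonic hedgehog. Prrx1 and Alx4 are homeodomain proteins, the Twist proteins and Hand2 are basic helix-loop-helix proteins that bind DNA as dimers, often with an E protein, and the Sall proteins are zinc finger repressors that recruit the NuRD nucleosome remodelling complex in mammals. The comparison asks how the transcripts of these factors change in regeneration. The gene table gives the names PRRX1, SALL1 and ALX4 to 2 gene IDs each, and the sources used here do not pair these IDs with the zebrafish copies (such as alx4a and alx4b), so the Ensembl ID is printed beside such a name.

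Depth was 47858392 and 48247042 counts for regenerating pools, against 43836649 and 34290386 for uninjured pools. Levels are given in CPM, the count of a gene relative to the library's total after scaling by trimmed mean of M values (TMM). CPM values are not divided by transcript length and are compared here between groups, not between genes. Of the 10 genes, 9 passed the filter on low counts, and HAND2 did not. Among the 9 tested genes, 7 were higher and 1 was lower in regenerating fins, and 1 was called in neither direction (threshold of 0.05 on the Benjamini-Hochberg adjusted p of edgeR's quasi-likelihood test). Across the 25594 genes tested, 59.6% passed, 29.5% being higher and 30.1% lower. Of those calls 49.5% were higher, or 61.8% when libraries were scaled by total counts alone, which moved the median of all genes by 0.21 (log2). In all, 15.0% of tested genes were higher by at least 2-fold, as were all 7 of the higher genes here. The median log2 fold change was 1.86 over the 9 genes and -0.02 over all tested genes. The genes were chosen with earlier results of these data known, so these shares and medians describe the set and are no test of enrichment. Each regenerating value of the same 7 genes exceeded each uninjured value, an order seen in 40.3% of tested genes.

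**Figure D1:**
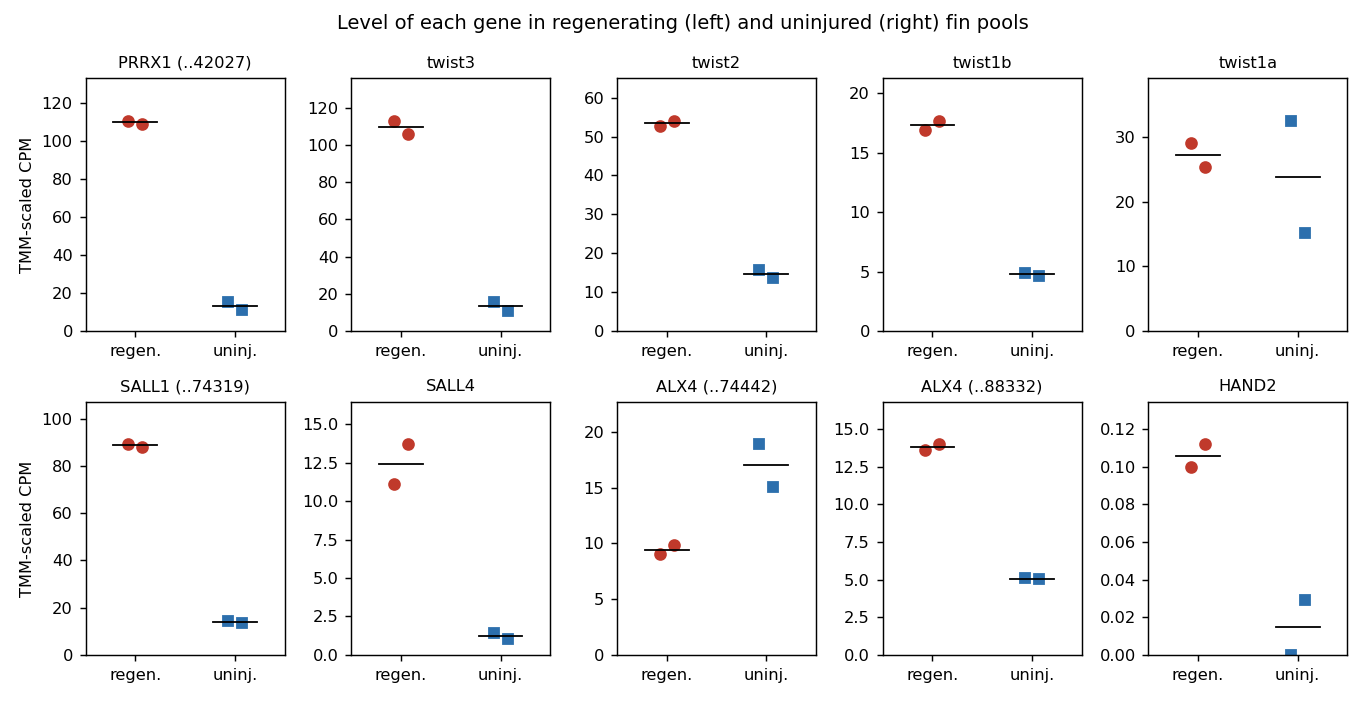
Level of each of the 10 genes (TMM-scaled CPM, linear axis from 0 with its own scale in each panel) in regenerating pools (red circles, left) and uninjured pools (blue squares, right), with the group mean as a line. The groups are apart in all panels but that of twist1a. HAND2, which was not tested, rests on 5 and 6 counts in regenerating pools, against 0 and 1 in uninjured pools. ALX4 (ENSDARG00000074442) is the gene with lower regenerating pools. Of all tested genes, 40.3% have both regenerating pools above both uninjured pools. The share with the reverse order was not tabulated, so the panels that are apart have no share for either direction to be read against. By the edgeR test, 59.6% of tested genes passed in either direction.

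PRRX1, twist3, SALL1 and SALL4 were the genes with increases of over 4-fold. PRRX1 (ENSDARG00000042027), a paired-related homeobox gene of limb and fin mesenchyme, had 111 and 109 CPM in the regenerating pools, against 15.3 and 11.4 CPM in the uninjured pools. The regenerating pools lay close together and far above the uninjured ones. This was an 8.20-fold difference, with a log2 fold change of 3.03 ± 0.17 (SE, n = 2 pools each, edgeR quasi-likelihood, Benjamini-Hochberg adjusted p = 5.20e-06). The other PRRX1 gene ID (ENSDARG00000033971), which is not among the 10 genes, also rose, with 145 and 137 CPM in regenerating and 45.7 and 45.2 CPM in uninjured pools and a smaller log2 fold change of 1.63 ± 0.12.

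Of the 4 Twist genes, 3 rose and twist1a was not called. twist3 (ENSDARG00000019646) had 113 and 106 CPM in regenerating pools, against 15.6 and 11.0 CPM in uninjured pools. Its log2 fold change was 3.04 ± 0.18, or 8.25-fold (edgeR quasi-likelihood, Benjamini-Hochberg adjusted p = 7.93e-06). The change of twist3 was nearly that of PRRX1. twist2 (ENSDARG00000078266), whose mammalian counterpart is known from dermal mesenchyme, had 52.6 and 54.1 CPM in regenerating and 15.7 and 13.6 CPM in uninjured pools. twist1b (ENSDARG00000076010) had 16.9 and 17.7 CPM in regenerating and 4.93 and 4.61 CPM in uninjured pools. The groups of both genes were well apart, and both rose by the same amount, with log2 fold changes of 1.86 ± 0.13 for twist2 and 1.86 ± 0.14 for twist1b (3.63-fold each, adjusted p = 1.49e-05 and 1.97e-05 by the same edgeR test).

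twist1a (ENSDARG00000030402) was the gene whose groups overlapped. It had 29.0 and 25.3 CPM in the regenerating pools, which lay between the 32.5 CPM of uninjured pool 1 and the 15.2 CPM of uninjured pool 2. The log2 fold change was 0.18 ± 0.29, with an approximate 95% interval of -0.39 to 0.76 (edgeR quasi-likelihood, Benjamini-Hochberg adjusted p = 0.611). The spread came from the uninjured pair, which differed 2.14-fold, while the regenerating pair differed 1.14-fold. The outcome depended on which uninjured pool was kept. Without uninjured pool 1 the log2 fold change of twist1a was 0.84, and without uninjured pool 2 it was -0.23, the opposite direction. Each of these fits kept a single uninjured pool and so held no spread between uninjured pools, and only the effect sizes are given. Over the alternatives that kept all 4 libraries, the adjusted p of twist1a ranged from 0.148 (edgeR, total counts alone) to 0.839 (edgeR, 10 CPM filter).

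**Figure D2:**
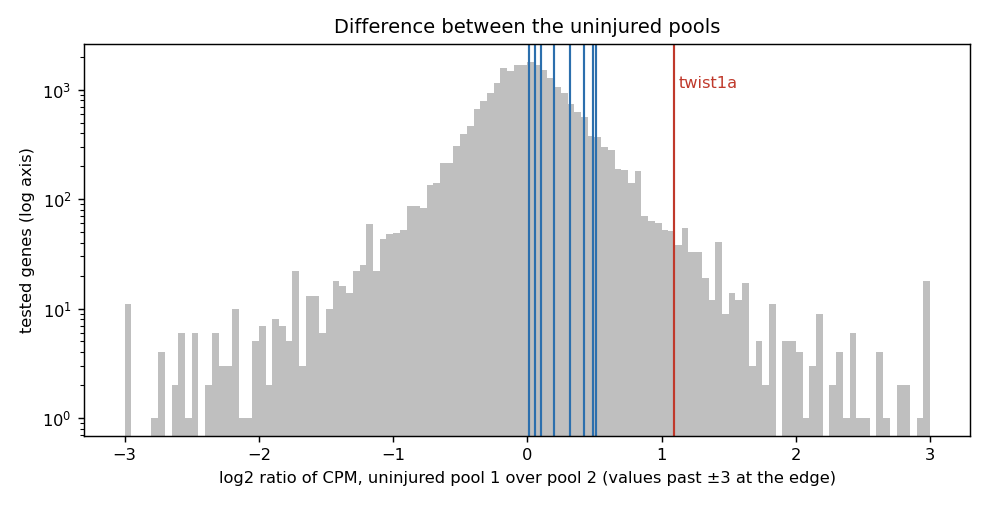
Number of tested genes (log axis) by the log2 ratio of CPM in uninjured pool 1 over uninjured pool 2, with the 9 tested genes of the set as vertical lines (twist1a in red, the others in blue). twist1a lies at 1.09, and the other 8 genes lie between 0.01 and 0.51, all on the side of pool 1.

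The difference between the uninjured pools was larger for twist1a than for 97.2% of all tested genes. Among the 10119 genes with a mean of 10 to 100 CPM, the median absolute log2 difference was 0.159, and 78 genes (0.771%) differed at least 2-fold. All 9 tested genes of the set had a higher level in uninjured pool 1 than in uninjured pool 2, as did 50.3% of all tested genes. When the libraries were scaled by their total counts alone, 6 of the 9 lay higher in pool 1, against 26.6% of all tested genes, and the 2 uninjured values of twist1a differed 1.87-fold. In the regenerating pair, 4 of the 9 were higher in pool 1. For the 7 genes that rose, pools of 1 group differed by at most 1.42-fold, less than the smallest increase.

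Both Sall genes of the set rose. SALL1 (ENSDARG00000074319), a zinc finger gene whose human counterpart is mutated in Townes-Brocks syndrome, had 89.2 and 88.2 CPM in regenerating pools, against 14.2 and 13.6 CPM in uninjured pools. The pools of each group were nearly equal, and the increase of 2.67 ± 0.12 on the log2 scale (6.37-fold) had the smallest adjusted p of the set (2.80e-06, edgeR quasi-likelihood, Benjamini-Hochberg). SALL4 (ENSDARG00000044485), known for its roles in stem cells and in forelimb development, had 11.1 and 13.7 CPM in regenerating pools, against 1.44 and 1.03 CPM in uninjured pools. The uninjured values rest on 55 and 35 counts, and the groups did not come near each other. With a log2 fold change of 3.32 ± 0.21 (9.96-fold, adjusted p = 1.06e-05 by the same edgeR test), SALL4 had the largest increase among the 9 genes, and 98.9% of all tested genes had a smaller log2 fold change.

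The genes named ALX4 moved in opposite directions. In mouse limb buds Alx4 is known to keep sonic hedgehog expression out of the anterior side. ALX4 (ENSDARG00000074442) had 9.05 and 9.84 CPM in regenerating pools, against 18.9 and 15.1 CPM in uninjured pools, and fell by 0.85 on the log2 scale (SE 0.15, edgeR quasi-likelihood, Benjamini-Hochberg adjusted p = 0.00157). It was the single gene of the set that fell, 1.80-fold, and both of its regenerating pools lay below both uninjured pools. ALX4 (ENSDARG00000088332) had 13.6 and 14.0 CPM in regenerating pools, against 5.09 and 5.05 CPM in uninjured pools, and rose by 1.44 ± 0.14 (2.72-fold, adjusted p = 5.98e-05 by the same edgeR test).

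**Figure D3:**
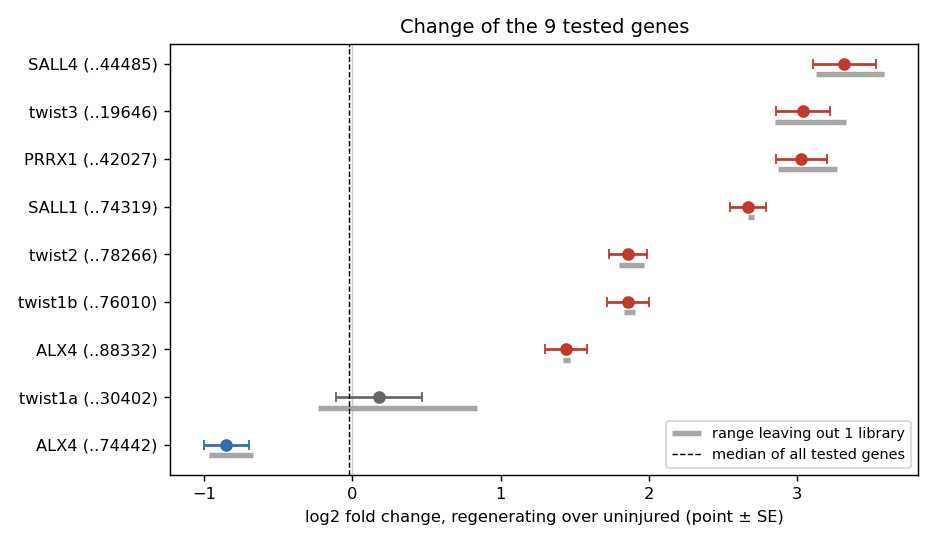
Log2 fold change of the 9 tested genes, regenerating over uninjured (point ± SE; red higher, blue lower, grey not passing the test). The grey bar under each point spans the values obtained without each of the 4 libraries in turn, and it crosses 0 for twist1a, from -0.23 to 0.84.

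HAND2 (ENSDARG00000008305), a helix-loop-helix gene of heart and limb bud, was near the detection limit in all 4 libraries. It had 5 and 6 counts in the regenerating pools, against 0 and 1 counts in the uninjured pools, and the count of 0 in uninjured pool 1 allows a level of up to 0.0787 CPM. The summed counts of 11 in regenerating and 1 in uninjured fins, scaled for depth, gave a ratio of 7.68 with an exact 95% interval of 1.12 to 331, which covers counting error only. When no filter was applied, HAND2 was not called (Benjamini-Hochberg adjusted p = 0.0686, edgeR quasi-likelihood).

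Ratios within a library need no scaling and show how related genes changed against each other. The counts of ALX4 (ENSDARG00000074442) over those of ALX4 (ENSDARG00000088332) gave a ratio of 0.667 and 0.704 in the regenerating pools, against 3.70 and 2.99 in the uninjured pools. The ratio, on counts not divided by transcript length, lay on opposite sides of 1 in the groups, and the mean log2 ratio differed by -2.28. The ratio of twist1a to twist1b was 1.71 and 1.43 in regenerating pools and 6.58 and 3.30 in uninjured pools. The ratio of twist2 to twist3 was 0.465 and 0.509 in regenerating pools, against 1.01 and 1.24 in uninjured pools, so that twist3 gained on twist2. The ratio of SALL1 to SALL4 was 8.04 and 6.45 in regenerating pools and 9.77 and 13.1 in uninjured pools, the smallest shift of the 4, at -0.65 on the log2 scale. The groups did not overlap in any of the 4 ratios, but how often the ratios of other gene pairs separate was not measured. An exact two-sided permutation test over the 4 libraries gave p = 0.333 for each, which is the smallest p that 2 pools against 2 can give.

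**Figure D4:**
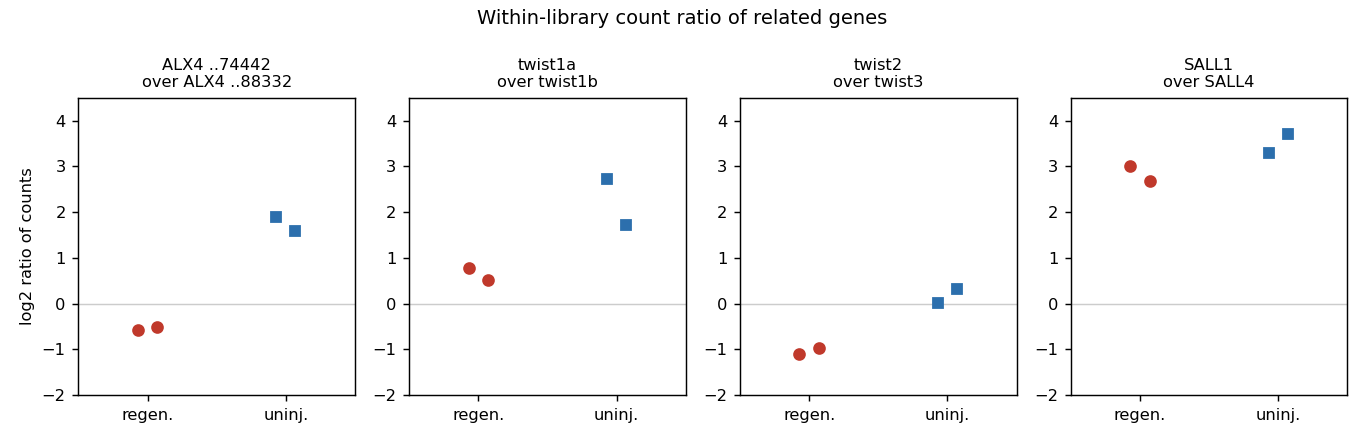
Log2 ratio of raw counts of 2 related genes within each library, in regenerating pools (red circles, left) and uninjured pools (blue squares, right). The ratio of the ALX4 gene IDs changes sign between the groups, and the ratio of SALL1 to SALL4 shifts least.

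Likeness of profile was measured as the root mean square difference of log2 CPM, centred on each gene's mean, over the 4 libraries, among 10518 named genes with a mean of at least 5 CPM. The nearest gene to PRRX1 (ENSDARG00000042027) was twist3, at 0.039, followed by TCF7, a nuclear partner of beta-catenin (0.070), and the cartilage-type collagen gene COL11A1 (ENSDARG00000026165, 0.083). The same TCF7 and COL11A1 were, after PRRX1 itself, the nearest to twist3. The nearest to twist2 were PRICKLE2 (ENSDARG00000037593, 0.033), RBMS2 (0.038) and twist1b (0.039), and the nearest to twist1b were twist2 (0.039), TRIQK (0.040) and crlf1b (0.041). The nearest to SALL1 were the planar cell polarity gene PRICKLE1 (ENSDARG00000045694, 0.015), the axon guidance receptor gene ROBO3 (0.018) and the heme oxygenase gene HMOX1 (0.023). The nearest to SALL4 was EGFL6, a secreted matrix protein gene, at 0.098. For ALX4 (ENSDARG00000074442), the nearest were SH3TC2 (0.026), the extracellular superoxide dismutase gene SOD3 (0.028) and nfatc3b (0.029), and for ALX4 (ENSDARG00000088332), CTTNBP2NL and STARD8 (0.017 each) and SUMF2 (0.018). With 2 groups of 2 libraries this measure mainly reflects the size of the change. For twist1a, added after its values were seen, the nearest genes were AIMP2 (0.088), the cryptochrome gene cry5 (0.095) and TMEM11 (0.129).

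Related genes outside the set mostly rose or were hardly detected. Of 12 such gene IDs (other PRRX1, SALL, ALX, SHOX and helix-loop-helix genes of mesenchyme), 7 were tested. Of these 5 rose, 0 fell and 2 were not called (median log2 fold change 1.63), beside 29.5% higher and 30.1% lower over all tested genes. The 5 that rose were the second PRRX1 gene ID and 4 Sall genes. The second SALL1 gene ID (ENSDARG00000075891) had 3.76 and 4.27 CPM in regenerating pools, against 0.393 and 0.704 CPM in uninjured pools, a log2 fold change of 2.88 ± 0.28. sall3b rose by 1.88 ± 0.13, sall2 by 1.91 ± 0.19 and SALL3 by 1.03 ± 0.19. The tendon factor genes SCX and scxb, at 0.10 ± 0.17 and 0.31 ± 0.33, were not called. SHOX, SHOX2, ALX1, TCF15 and TCF21 stood at or under 0.160 CPM in every library and were not tested.

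E proteins pair with Twist and Hand factors on DNA, and Id proteins bind E proteins and keep them from DNA. Of 7 tested E protein and Id genes, 1 rose, 1 fell and 5 were not called (median log2 fold change -0.19, or 0.03 with 3 higher and 1 lower when scaled by total counts alone). Over all tested genes 29.5% were higher and 30.1% lower. The E protein gene TCF12 rose by 1.22 ± 0.13, with 123 and 109.6 CPM in regenerating pools, against 47.1 and 53.0 CPM in uninjured pools. ID4 fell by 1.15 (SE 0.20), with 4.41 and 4.10 CPM in regenerating pools, against 7.63 and 11.3 CPM in uninjured pools. ID1 had 522 and 508 CPM in regenerating pools, against 459 and 338 CPM in uninjured pools, and was not called (edgeR, Benjamini-Hochberg adjusted p = 0.121).

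Of 13 tested genes of NuRD subunits, 8 rose, 1 fell and 4 were not called (median log2 fold change 0.57). The shares over all tested genes were 29.5% higher and 30.1% lower. The helicase gene CHD4 rose by 2.15 ± 0.14, with 265 and 243 CPM in regenerating pools, against 54.2 and 60.2 CPM in uninjured pools. The histone-binding subunit genes RBBP4 and rbb4l rose by 1.99 ± 0.15 and 1.35 ± 0.13. The higher call of GATAD2B (0.53 ± 0.13) was lost when a single library was left out. The single one that fell, mbd3b, changed by -0.66 ± 0.20. Its call was lost without regenerating pool 1 (edgeR, adjusted p = 0.126) or uninjured pool 2 (edgeR, adjusted p = 0.143) and under scaling by total counts, where 9 genes rose and 0 fell. Some of these subunits, such as the RBBP proteins, also serve other complexes.

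Among 10 tested factors of mesenchymal transition, 6 rose, 1 fell and 3 were not called (median log2 fold change 0.65). Scaled by total counts alone, 7 were higher and 1 lower (median 0.86). All tested genes were higher in 29.5% and lower in 30.1% of cases in the main test. The Snail genes snai1b and snai1a rose by 3.01 ± 0.19 and 1.08 ± 0.16, with snai1b at 10.6 and 8.77 CPM in regenerating pools, against 1.23 and 1.17 CPM in uninjured pools. The mesenchymal homeobox gene MEOX1 also rose, with 6.43 and 5.51 CPM in regenerating pools, against 3.07 and 2.49 CPM in uninjured pools. The higher call of zeb1a was lost when a single library was left out, its log2 fold change then ranging from 0.38 to 0.86. The forkhead gene foxc1b fell by 2.17 (SE 0.22), with 11.7 and 8.98 CPM in regenerating pools, against 55.8 and 37.0 CPM in uninjured pools. The gene ID named FOXC1 (ENSDARG00000091481) rose by 2.13 ± 0.40 at a low level. It had 0.839 and 0.637 CPM in regenerating pools, against 0.210 and 0.117 CPM in uninjured pools.

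Of 18 tested genes of fin bud outgrowth, 7 rose, 5 fell and 6 were not called (median log2 fold change -0.06, or 0.15 with 7 higher and 2 lower when scaled by total counts alone), beside 29.5% higher and 30.1% lower over all tested genes. SHH (ENSDARG00000068567), which Hand2 activates and Alx4 restricts in mouse limb buds, rose by 4.05 ± 0.20. It had 8.43 and 9.03 CPM in regenerating pools, against 0.551 and 0.499 CPM in uninjured pools. The other SHH ID (ENSDARG00000038867) had 1 and 2 counts in regenerating pools, against 6 and 6 in uninjured pools, and was not tested. The distal-less gene DLX5 rose by 1.94 ± 0.13, with 77.7 and 67.4 CPM in regenerating pools, against 19.8 and 17.9 CPM in uninjured pools. meis3, of a family that marks the proximal limb in other vertebrates, fell by 1.36 (SE 0.24). Leaving out a library lowered the number of calls over all genes. In this list the calls of LMX1B, GLI3, MEIS1 and PTCH1 were lost when a single library was left out. Their log2 fold changes then ranged from -0.93 to -0.57, -0.76 to -0.28, -0.56 to -0.49 and 0.35 to 0.61.

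**Figure D5:**
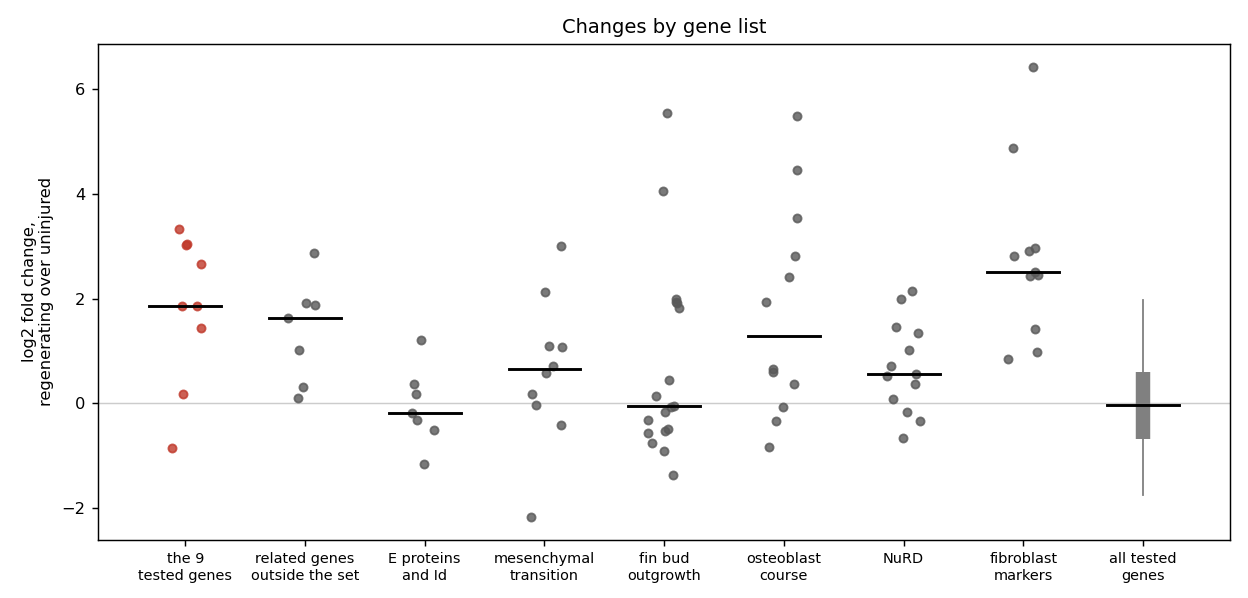
Log2 fold change, regenerating over uninjured, of the 9 tested genes (red) and of the tested genes of 7 lists (grey points), each with its median as a black line. The last column gives all tested genes (thin line, 5th to 95th percentile, from -1.75 to 1.97; thick bar, 25th to 75th percentile, from -0.68 to 0.60), whose median lies at -0.02.

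Markers of cell types moved in the same libraries, and their part in the changes of the transcription factors was not tested. Their counts stand beside shares of 29.5% higher and 30.1% lower over all tested genes. All 11 fin fibroblast and mesenchyme marker IDs rose (median log2 fold change 2.51), the names FN1 and TNC each covering 2 of these IDs. Their summed level was 7545 and 6753 CPM in regenerating pools, against 1376 and 1451 CPM in uninjured pools. The mesenchyme receptor gene PDGFRA, for example, had 34.3 and 33.0 CPM in regenerating and 5.38 and 7.04 CPM in uninjured pools (2.44 ± 0.16). PRRX1 (ENSDARG00000042027), twist3, SALL1 and SALL4 had a larger log2 fold change than that median, and the other 3 genes that rose had a smaller one. The marker IDs themselves ranged widely, from 0.84 (POSTN) to 6.43 (TNC, ENSDARG00000021948). Every gene of the set that rose lay within that range. Whether these markers follow the number of fibroblasts was not tested. Of 12 genes of the osteoblast course, 9 rose, 1 fell and 2 were not called (median log2 fold change 1.29). The 6 osteoblast markers are all part of that course list as well, so their counts are not separate evidence. Of these 6 markers, 5 rose and bglap fell, the same gene that fell in the course list. Their summed level was mostly that of the collagen gene COL10A1 (ENSDARG00000054753), with 10699 and 9218 CPM in regenerating pools, against 197 and 247 CPM in uninjured pools. The other 5 markers summed to 268 and 272 CPM in regenerating pools, against 88.3 and 88.9 CPM in uninjured pools. RUNX2 (ENSDARG00000040261) encodes the osteoblast factor that Twist1 is known to hold back in mouse, and the activity of the protein was not measured here. Its transcript had 21.1 and 23.9 CPM in regenerating pools, against 17.8 and 17.0 CPM in uninjured pools, an increase of 0.37 ± 0.13. This call was lost without regenerating pool 1, regenerating pool 2 or uninjured pool 2 (edgeR, adjusted p = 0.0617, 0.238 and 0.0621). Its paralog runx2b had 59.7 and 59.0 CPM in regenerating pools, against 38.0 and 37.6 CPM in uninjured pools, and its increase of 0.65 ± 0.11 kept its call without any 1 library (edgeR, largest adjusted p = 0.0128). SP7, the next factor in the osteoblast course, rose by 2.82 ± 0.16, the phosphatase gene PHOSPHO1 of mineralisation by 4.46 ± 0.16, and bglap, of mature bone, fell by 0.83 (SE 0.14). Of 7 epidermal markers 6 fell and krt5 was not called, with 41066 and 35492 CPM in sum in regenerating pools, against 125770 and 96744 CPM in uninjured pools. The 6 without krt5 summed to 16744 and 14617 CPM in regenerating pools, against 56676 and 42146 CPM in uninjured pools. All 5 endothelial markers rose (248 and 198 CPM in sum in regenerating, 67.8 and 74.1 CPM in uninjured pools), and all 6 Schwann cell and nerve markers fell (71.9 and 77.1 CPM in sum in regenerating, 178 and 174 CPM in uninjured pools). Of 10 macrophage marker IDs, all of which carry the name MPEG1, MFAP4 or marco, 5 rose and 4 fell. Both neutrophil markers found fell, and 2 of the 4 neutrophil symbols listed had no match. Of 7 pigment cell marker IDs 1 rose and 3 fell, and 2 of 5 tested muscle marker IDs rose. The macrophage and pigment cell IDs went both ways and most muscle IDs were not called, so no direction is read for these cell types. Scaled by total counts alone, 1 neutrophil and 1 pigment cell marker were lower and 3 muscle markers higher. All 7 epidermal markers were lower under that scaling, krt5 included, whose log2 fold change in the main test was -1.45 ± 0.70. The neutrophil marker NCF1 lost its call without regenerating pool 2 (edgeR, adjusted p = 0.156) or uninjured pool 1 (edgeR, adjusted p = 0.0740). The epidermal krt91 lost its call without regenerating pool 1 or 2 (edgeR, adjusted p = 0.151 and 0.198), the endothelial cdh5 without regenerating pool 1 (edgeR, adjusted p = 0.0643) and the Schwann cell marker SOX10 without regenerating pool 2 or uninjured pool 1 (edgeR, adjusted p = 0.0586 and 0.0519). Leaving out single libraries also cost the pigment cell markers MITF (ENSDARG00000003732) and DCT, the muscle marker ckma and some MFAP4 IDs their calls. The same held for the osteoblast course gene spp1. No marker of these cell types stood at 0 in all 4 libraries.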

How the data were processed

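The deposited tables hold raw read counts per Ensembl gene for 4 libraries, whole numbers that are not normalized. Per the labels, total RNA was made into 50 bp single-end libraries. Per the submitters' processing notes CASAVA, TopHat, edgeR and the genome build Zv9 were used, and per the file headers the counts come from alignments named accepted hits. No source used here gives their versions, the counting program, the annotation or whether strand was used, so reads shared by near-identical copies or overlapping genes cannot be separated. Coordinates, transcript lengths and sequences were not used here.

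Gene symbols matched 20769 of 32434 IDs (64.0%). Genes were filtered with filterByExpr (minimum count 10, minimum total 15), given TMM scaling (factors 1.05 and 1.11 for regenerating, 0.870 and 0.994 for uninjured libraries) and compared with edgeR's quasi-likelihood test (edgeR 4.0.16, R 4.3.3, non-legacy estimation, group as the only term), with Benjamini-Hochberg adjustment over all 25594 tested genes. Each SE was taken as the absolute log2 fold change divided by the square root of the F statistic of that test. Ratios used counts plus 0.5, and log2 CPM a prior count of 2. The pools of each group differed by more than counting noise (chi-square per degree of freedom 15.9 for regenerating and 32.9 for uninjured). A floor of 3 counts corresponds to 0.0562 to 0.0880 CPM; floors and intervals on counts cover counting error only. The test was checked on simulated data, where false calls exceeded the nominal rate if each gene kept its own estimated dispersion. DESeq2 1.42.0, other scalings and filters, legacy estimation, a replicate block and leaving out each library were the alternatives. Leaving out a library left a single pool in its group, so the SE and p of such a fit hold no spread within that group. Fewer genes passed in each of these fits, so a call lost there can reflect lost power and not only dependence on that library.

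The genes, the lists and the rule for named genes were chosen with earlier results of these data known. The rule named all 10 genes, at most 4 genes of each list and the 3 nearest profiles of each gene that passed. List genes were taken by smallest adjusted p, 3 from the more frequent direction and 1 from the opposite one. Other list members printed were chosen after their values were seen. These were sall2, SALL3, SCX, scxb, ID1, RUNX2, runx2b, krt5, krt91, cdh5, SOX10, PDGFRA, LMX1B, GLI3, MEIS1, PTCH1, zeb1a, GATAD2B, spp1, FOXC1, the second SHH ID, the MFAP4 IDs that lost calls and the undetected genes. A list gene that the rule names is not reported here. List symbols without an exact match were matched without their paralog suffix, and genes of the set were left out of the lists. Every gene ID with a matching name was counted, so some IDs of a list share a name. Symbols with no match were dropped, for example 2 of 7 endothelial and 2 of 9 epidermal symbols.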

Additional observations from a re-analysis of the deposited data

How the results depend on the processing

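Under each of the 11 alternatives to the test (DESeq2 size factors, total counts, no filter, the 10 CPM filter, DESeq2, legacy estimation, the replicate block and leaving out each library), the 7 genes that rose and the 1 that fell kept their direction and passed. The exception in the set was twist1a. Its log2 fold change ranged from -0.23 (without uninjured pool 2) to 0.84 (without uninjured pool 1), each from a fit with a single uninjured pool. It did not pass under any alternative that kept all 4 libraries. Scaling by total counts shifted the median over all genes by 0.21 (log2), made 8941 genes higher and 5525 lower, and so made 61.8% of the calls higher in place of 49.5%, and ALX4 (ENSDARG00000074442) was still lower, at -0.63. With at least 10 CPM in 2 libraries, 12466 genes were tested, 4384 higher and 4461 lower in place of 7549 and 7693, and list genes called lower numbered 19 in place of 30, where fewer genes entered. Without 1 library at a time, 5965 to 7438 of all genes were higher and 5891 to 7177 lower. The 4 ratios of related genes kept their sign without any 1 library and with 2 counts added. Replicates of different groups share a number, and the labels do not say whether they share anything else. The replicate 1 minus 2 differences of the groups had an r of -0.0314 across genes, and with a replicate block 7478 genes were higher and 7631 lower, with the calls on the 9 genes the same. The few counts of HAND2 limit its ratio.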
